A study of Mus musculus with 3 samples.

Results

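Complement components and regulators were followed here through 9 genes, a list of names, of the 31054 features counted in dissociated mouse lung. They are C1qa, C1qb and C1qc, C1ra and C1s1, C4b and C2, Cfb, and Serping1, and all 9 were found in the files. The study held 1 droplet single-cell library of lung from each of 3 groups of mice: mice with a conditional knockout that were irradiated and given a drug (the cKO-drug library), irradiated wild-type mice (irradiated WT), and non-irradiated wild-type mice as controls. The labels name no target of the knockout and no drug, so the deletion could not be checked in the counts, and the effects of genotype and drug cannot be told apart because both came in the same library. Nor do the labels state strain, age, sex, the promoter driving the deletion, radiation dose, time after irradiation or how many mice stand behind a library. Since each group had 1 library, no difference has a replicate check, so no test was made and every comparison below is between libraries.

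Complement is a cascade of plasma proteins that marks microbes, dying cells and debris for removal. In the classical pathway the recognition molecule C1q, built from A, B and C chains, activates the proteases C1r and C1s, which cleave C4 and C2 to form an enzyme that splits C3. In the alternative pathway that enzyme is formed with factor B, and C1 inhibitor, encoded by Serping1, blocks C1r and C1s. Tissue macrophages are known as the main makers of C1q, while fibroblasts and other stromal cells make many of the later components.

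On GRCm38 with GENCODE vM21, the 3 C1q genes lie on the minus strand of chromosome 4, C1qb at 4:136880129-136886187, C1qc at 4:136889804-136893065 and C1qa at 4:136895917-136898803, within 18.7 kb. C4b (17:34728380-34743882), Cfb (17:34856374-34862518) and C2 (17:34862604-34898265) lie on the minus strand of chromosome 17, with 0.085 kb between Cfb and C2. C1ra (6:124512405-124523443, plus strand) and C1s1 (6:124530345-124542359, minus strand) are neighbours on chromosome 6, and Serping1 is at 2:84765387-84775444 on the minus strand. RefSeq promoter windows of the same build matched 4 of the 9 members, C1qb, C1qc, C1s1 and C1ra. The bases before the start of 3 of them are shown because the C1q genes and the C1r/C1s genes followed different cells throughout the data. Each is written 5′ to 3′ on the gene's own strand. Capitals mark matches, on either strand, to GAGGAA, a core bound by the myeloid factor PU.1, or to TTNNGNAA, a core bound by C/EBP factors. C1qb covers chr4:136886201-136886450 (minus strand), C1qc chr4:136893066-136893164 (minus strand) and C1s1 chr6:124542360-124542609 (minus strand).
C1qb: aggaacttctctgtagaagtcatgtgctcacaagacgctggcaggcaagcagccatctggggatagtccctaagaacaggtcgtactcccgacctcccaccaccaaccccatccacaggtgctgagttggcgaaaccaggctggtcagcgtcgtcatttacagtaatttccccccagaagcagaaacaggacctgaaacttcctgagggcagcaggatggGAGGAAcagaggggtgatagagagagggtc
C1qc: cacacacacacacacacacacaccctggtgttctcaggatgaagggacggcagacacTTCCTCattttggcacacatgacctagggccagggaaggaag
C1s1: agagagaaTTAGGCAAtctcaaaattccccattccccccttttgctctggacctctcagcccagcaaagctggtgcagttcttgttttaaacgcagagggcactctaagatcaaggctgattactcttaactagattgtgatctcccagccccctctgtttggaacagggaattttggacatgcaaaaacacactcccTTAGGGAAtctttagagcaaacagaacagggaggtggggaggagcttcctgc
Counted from the vM21 gene starts given above, GAGGAA began 43 bases before C1qb and 42 bases before C1qc, where it reads TTCCTC, and TTNNGNAA began 242 and 52 bases before C1s1. The RefSeq start of C1qc lies 151 bases inside the vM21 gene and that of C1ra 216 bases inside it, so the bases past the vM21 starts are not shown. Among those bases TTNNGNAA also matched C1qc, 81 bases before its RefSeq start, and C1ra, 72 and 29 bases before its own. TTNNGNAA was therefore not particular to the C1r/C1s genes. Of 32851 windows of 250 bases, 23.3% held GAGGAA and 36.8% held TTNNGNAA, so each match is common. TTCNNNGAA, a STAT-type motif held by 7.02% of windows, was in none of the 4 RefSeq windows.

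After removal of barcodes with under 250 genes or over 15% mitochondrial counts, 9886 cells remained in the cKO-drug library, 5805 in the irradiated WT library and 13091 in the non-irradiated library. Their median depths were 6070.5, 5706 and 4899 unique molecular identifiers (UMIs) per cell in that order. Cells were sorted into 6 sets by marker UMIs. These were a Marco/Siglecf set, by alveolar macrophage markers, of 64 cKO-drug, 52 irradiated WT and 127 non-irradiated cells; the other Csf1r cells (208 cKO-drug, 52 irradiated WT, 573 non-irradiated); a Npnt/Tcf21 fibroblast set (1130 cKO-drug, 559 irradiated WT, 3847 non-irradiated); a Pi16/Dpp4 fibroblast set (225 cKO-drug, 134 irradiated WT, 981 non-irradiated); a Pecam1/Cdh5 endothelial set (695 cKO-drug, 401 irradiated WT, 2945 non-irradiated); and an Epcam epithelial set (190 cKO-drug, 118 irradiated WT, 448 non-irradiated). The sets were mixed. The leukocyte gene Ptprc was counted in 60.3% of cKO-drug, 73.3% of irradiated WT and 22.7% of non-irradiated cells of the Pecam1/Cdh5 set and in 41.3% of cKO-drug, 41.8% of irradiated WT and 15.7% of non-irradiated cells of the Pi16/Dpp4 set, and 52.9% of cKO-drug, 43.3% of irradiated WT and 75.8% of non-irradiated cells of the Pi16/Dpp4 set met a second rule. The share of cells that met a second rule was highest in the non-irradiated library in all 6 sets. It was 23.7% of cKO-drug, 30.5% of irradiated WT and 52.2% of non-irradiated cells in the Epcam set. In that order it was 14.8%, 13.2% and 29.4% in the Pecam1/Cdh5 set and 7.81%, 11.5% and 25.2% in the Marco/Siglecf set. The other Csf1r cells had 27.4%, 28.8% and 35.4%. Values are therefore also given for restricted sets, which kept cells of 1 set only and, in the fibroblast and endothelial sets, cells with no Ptprc UMI. By Y-linked and Xist counts, 0.273% of cKO-drug cells, 27.5% of irradiated WT cells and 1 non-irradiated cell were of male type. Pairs of libraries shared 18 to 32 cell barcodes. Levels are given as CPM, the UMIs of a gene scaled to the UMI total of its set, and are not divided by gene length. Intervals are exact, at 95%, and cover counting error only. A gene was called between libraries where CPM + 5 differed at least 2-fold and the higher library held at least 30 UMIs.

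**Figure D1:**
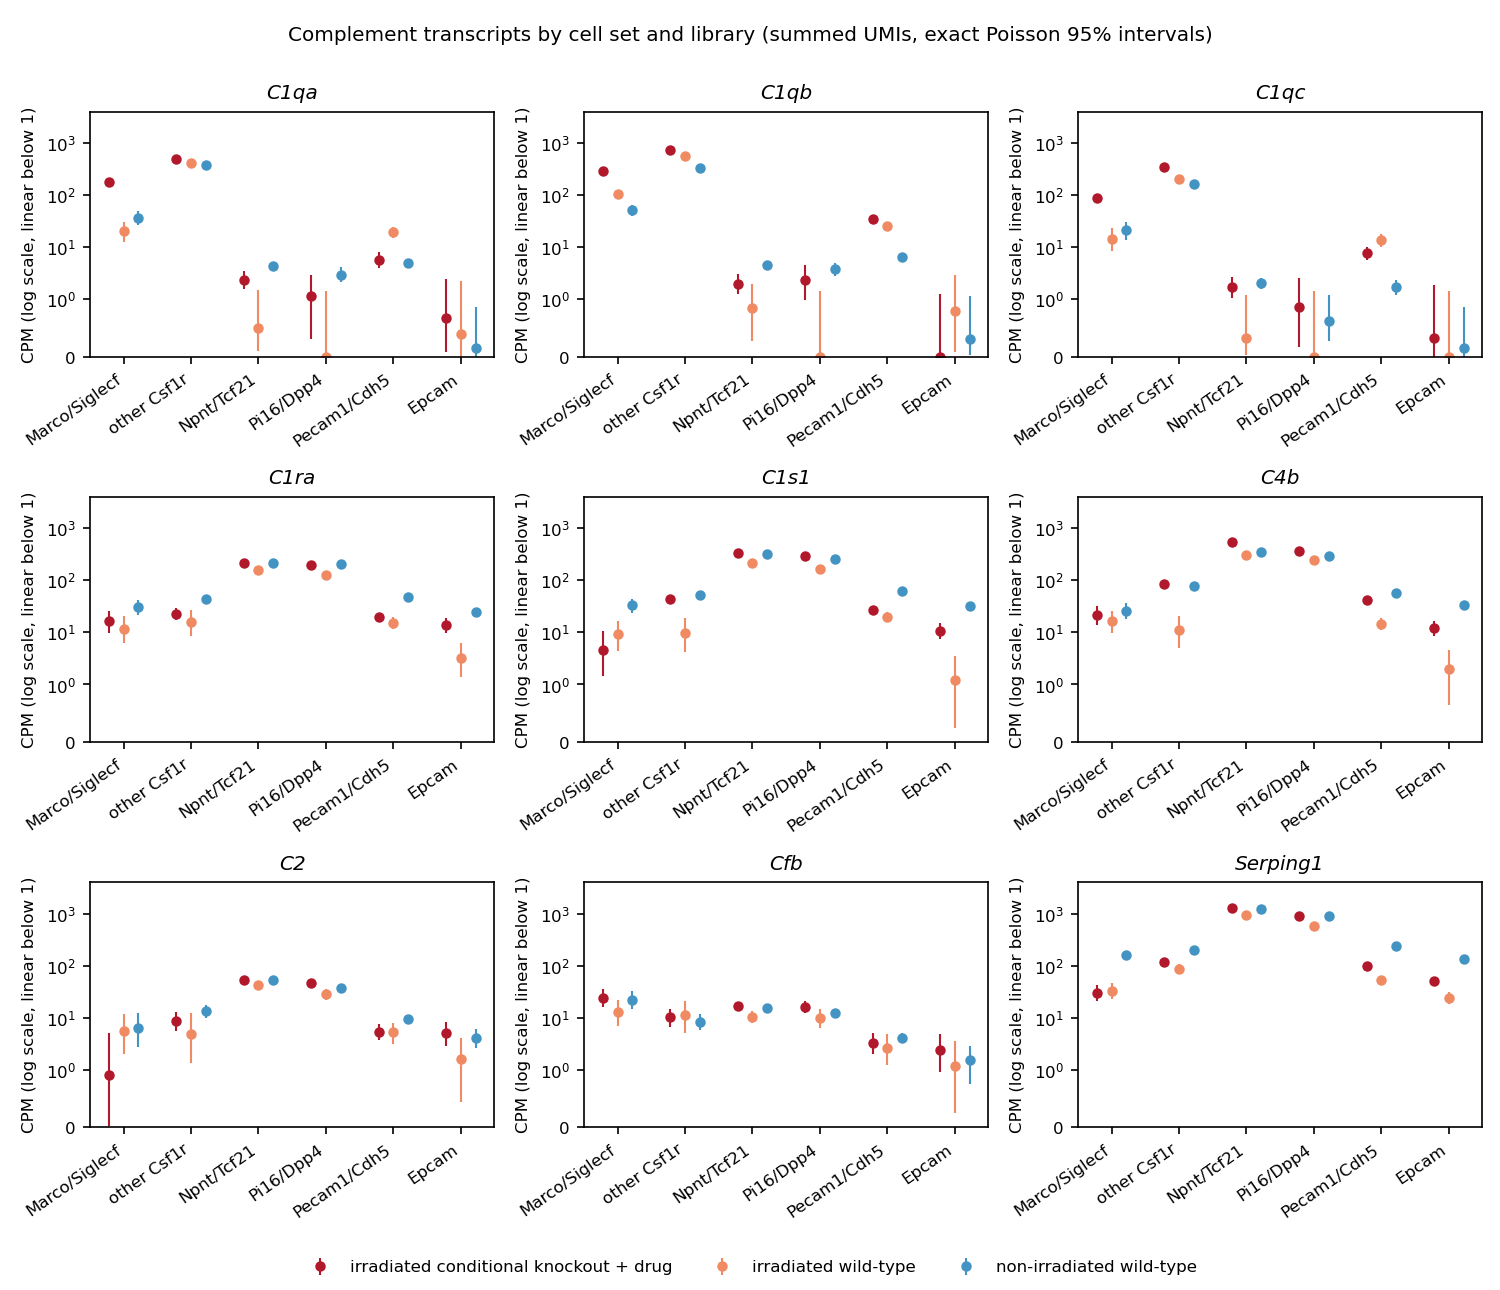
Level of each of the 9 complement genes in the 6 cell sets (CPM, symmetric log axis that is linear below 1) in the cKO-drug, irradiated WT and non-irradiated libraries, with exact Poisson 95% intervals. The C1q chains were highest in the other Csf1r cells and C1ra, C1s1, C4b, C2 and Serping1 in the fibroblast sets, while Cfb reached 24.3 CPM in cKO-drug, 12.8 in irradiated WT and 22.1 in non-irradiated cells of the Marco/Siglecf set.

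The C1q chains were found mainly in Csf1r cells. The Marco/Siglecf set and the other Csf1r cells together held 90.8% of all C1qa UMIs in the cKO-drug library, 97.5% in the irradiated WT library and 88.0% in the non-irradiated library. In the other Csf1r cells, C1qa, the A chain, was at 491 CPM (interval 465 to 519) in the cKO-drug library, 410 CPM (367 to 456) in the irradiated WT library and 373 CPM (354 to 392) in the non-irradiated library. C1qb, the B chain, was at 747 CPM in cKO-drug, 565 in irradiated WT and 334 in non-irradiated cells. C1qc, the C chain, was at 349 CPM in cKO-drug, 204 in irradiated WT and 162 in non-irradiated cells. All 3 chains were highest in the cKO-drug library and lowest in the non-irradiated one. The ratio of the cKO-drug to the irradiated WT library was 1.20 (1.06 to 1.36) for C1qa, 1.32 (1.19 to 1.47) for C1qb and 1.71 (1.45 to 2.03) for C1qc, and none of the 3 was called. The ratio of the irradiated WT to the non-irradiated library was 1.10 (0.974 to 1.24) for C1qa, 1.69 (1.52 to 1.88) for C1qb and 1.26 (1.06 to 1.5) for C1qc, again with no call. The cKO-drug over non-irradiated ratio, which shares its libraries with both, was 2.24 (2.09 to 2.40) for C1qb and 2.16 (1.95 to 2.39) for C1qc. Both were called, where 2.82% of all genes tested in that set were called higher, but neither call remained in restricted cells, with ratios of 1.93 (1.79 to 2.08) for C1qb and 1.85 (1.67 to 2.06) for C1qc. In the restricted set the order of the irradiated libraries turned for C1qa, at 714 CPM in cKO-drug, 828 in irradiated WT and 609 in non-irradiated cells, and for C1qb, at 1008 CPM in cKO-drug, 1139 in irradiated WT and 522 in non-irradiated cells. C1qc kept its order at 495 CPM in cKO-drug, 353 in irradiated WT and 267 in non-irradiated cells. C1qb was then called higher in the irradiated WT than in the non-irradiated library, at 2.18-fold (1.94 to 2.46), where 1.16% of all genes were called higher. The restricted set held only 37 irradiated WT cells, beside 151 cKO-drug and 370 non-irradiated cells. In the whole irradiated WT set 8 of 52 cells held 99.8% of the C1q UMIs, and the intervals do not cover differences between cells.

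Few cells carried these UMIs. C1qa was seen in 32 of 208 other Csf1r cells (15.4%) of the cKO-drug library, 8 of 52 (15.4%) of the irradiated WT library and 57 of 573 (9.95%) of the non-irradiated library. The median depth of these sets was 6518 UMIs in the cKO-drug, 6803.5 in the irradiated WT and 4771 in the non-irradiated library. After each cell was thinned to 1000 UMIs, C1qa was seen in 11.2% of cKO-drug, 14.3% of irradiated WT and 7.08% of non-irradiated cells. B cells, which should lack C1q, had a C1qa UMI in 0.552% of cKO-drug, 0% of irradiated WT and 0.744% of non-irradiated cells. Their median depths were 5992 UMIs in the cKO-drug, 4908 in the irradiated WT and 4512 in the non-irradiated library. Here and below, B cells are those that met none of the 6 rules. B cells that also carried marker UMIs of those sets were thus left out, so this background may be too low. The C1qa shares in the other Csf1r cells stood above those in these B cells. The 3 cells with most C1qa held 51.8% of its UMIs in the set in the cKO-drug library, 76.4% in the irradiated WT library and 32.3% in the non-irradiated library. The irradiated WT level therefore rests on very few cells.

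The balance of the 3 chains also differed between the libraries. C1qa made up 30.9% of the C1q UMIs of the other Csf1r cells in the cKO-drug library, 34.8% in the irradiated WT library and 42.9% in the non-irradiated library. C1qb made up 47.1% in the cKO-drug, 47.9% in the irradiated WT and 38.4% in the non-irradiated library. C1qc made up 22.0% in the cKO-drug, 17.3% in the irradiated WT and 18.6% in the non-irradiated library. The share of the A chain was thus lowest in the cKO-drug library and highest in the non-irradiated one. Markers of other cells also differed between the libraries in this set, in another order than C1q. The 9 epithelial markers summed to 16539 CPM in cKO-drug, 72301 in irradiated WT and 21048 in non-irradiated cells, and the 5 neutrophil markers to 15913 CPM in cKO-drug, 4406 in irradiated WT and 5084 in non-irradiated cells. Their part in the C1q levels was not tested.

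In the Marco/Siglecf set the C1q chains were lower than in the other Csf1r cells and rested on still fewer cells. C1qa was at 180 CPM in 3 of 64 cKO-drug cells, 20.1 CPM in 2 of 52 irradiated WT cells and 37.0 CPM in 6 of 127 non-irradiated cells, each CPM taken over the whole set. C1qb was at 295 CPM in cKO-drug, 105 in irradiated WT and 52.0 in non-irradiated cells. C1qc was at 87.5 CPM in cKO-drug, 14.6 in irradiated WT and 21.3 in non-irradiated cells. The cKO-drug library was the high one for each chain, with ratios to the irradiated WT library of 8.98 (5.77 to 14.7) for C1qa, 2.81 (2.26 to 3.50) for C1qb and 5.99 (3.51 to 10.9) for C1qc. All 3 were called, where 2.16% of all genes tested in the set were called higher and 7.75% lower. The interstitial macrophage markers moved the same way, at a sum of 1729 CPM in cKO-drug, 864 in irradiated WT and 634 in non-irradiated cells, while the 10 alveolar macrophage markers summed to 18053 CPM in cKO-drug, 15910 in irradiated WT and 15682 in non-irradiated cells. Their part in the C1q ratios was not tested. With the marker threshold raised by 1 UMI all 3 ratios turned, to log2 differences of -2.00 for C1qa, -1.40 for C1qb and -1.09 for C1qc. In restricted cells, which keep the lower threshold, all 3 chains were called higher in the cKO-drug library against the irradiated WT library (2.57% of all genes called higher) and against the non-irradiated library (4.89%).

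The proteases C1r and C1s were found mainly in fibroblasts. The fibroblast sets together held 90.2% of all C1ra UMIs in the cKO-drug library, 88.7% in the irradiated WT library and 91.4% in the non-irradiated library, and 92.3%, 87.5% and 91.2% of C1s1 in that order. In the Npnt/Tcf21 set C1ra, encoding C1r, was at 219 CPM in cKO-drug, 158 in irradiated WT and 213 in non-irradiated cells. C1s1, encoding C1s, was at 336 CPM in cKO-drug, 212 in irradiated WT and 322 in non-irradiated cells, and was seen in 63.7% of cKO-drug, 50.4% of irradiated WT and 70.7% of non-irradiated cells. B cells had a C1s1 UMI in 0.690% of cKO-drug, 1.24% of irradiated WT and 3.97% of non-irradiated cells. The median depth of the fibroblasts was 7515.5 UMIs in the cKO-drug, 7368 in the irradiated WT and 7192 in the non-irradiated library, above that of the B cells given earlier. Both genes were lowest in the irradiated WT library and close to level between the other libraries. The cKO-drug over irradiated WT ratio was 1.39 (1.29 to 1.5) for C1ra and 1.58 (1.48 to 1.69) for C1s1. The irradiated WT over non-irradiated ratio was 0.740 (0.690 to 0.792) for C1ra and 0.658 (0.620 to 0.697) for C1s1.

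The low irradiated WT values were less marked once mixed cells were left out. In restricted Npnt/Tcf21 cells, 715 in the cKO-drug, 317 in the irradiated WT and 2595 in the non-irradiated library, C1ra was at 272 CPM in cKO-drug, 228 in irradiated WT and 232 in non-irradiated cells and C1s1 at 415 CPM in cKO-drug, 308 in irradiated WT and 362 in non-irradiated cells. The irradiated WT over non-irradiated ratio was then 0.983 (0.901 to 1.07) for C1ra and 0.849 (0.789 to 0.913) for C1s1, and the cKO-drug over irradiated WT ratio 1.19 (1.09 to 1.31) for C1ra and 1.35 (1.24 to 1.46) for C1s1. The 8 alveolar fibroblast markers summed to 6422 CPM in cKO-drug, 5762 in irradiated WT and 8326 in non-irradiated cells of the whole set and to 9582 CPM in cKO-drug, 9851 in irradiated WT and 10993 in non-irradiated cells of the restricted set, with none at 0 there. Restricted Pi16/Dpp4 cells, 44 in the cKO-drug, 33 in the irradiated WT and 190 in the non-irradiated library, had C1ra at 512 CPM in cKO-drug, 487 in irradiated WT and 475 in non-irradiated cells and C1s1 at 829 CPM in cKO-drug, 617 in irradiated WT and 611 in non-irradiated cells. C1s1 was thus highest in the cKO-drug library in both restricted fibroblast sets, by 1.34-fold (1.10 to 1.65) over the irradiated WT library in the second. C1ra shares 56.9% of its 31-base stretches with the near copy C1rb and C1s1 shares 36.5% with C1s2, and an antisense gene, Gm16567, overlaps C1s1, so these counts are uncertain to that extent.

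C4b, one of the mouse C4 genes, had the largest difference between the irradiated libraries among the 6 members tested in Npnt/Tcf21 fibroblasts. It was at 544 CPM (531 to 558) in the cKO-drug library, 309 CPM (295 to 323) in the irradiated WT library and 354 CPM (348 to 361) in the non-irradiated library. C4b was seen in 54.2% of cKO-drug, 41.0% of irradiated WT and 48.2% of non-irradiated cells, and after thinning to 1000 UMIs in 28.8% of cKO-drug, 20.6% of irradiated WT and 22.1% of non-irradiated cells. The cKO-drug ratio was 1.76 (1.67 to 1.86) to the irradiated WT and 1.54 (1.49 to 1.59) to the non-irradiated library, under the 2-fold needed for a call. B cells held C4b at 7.21 CPM in cKO-drug, 9.77 in irradiated WT and 6.69 in non-irradiated cells, in 1.52% of cKO-drug, 1.06% of irradiated WT and 2.89% of non-irradiated cells, far below the fibroblasts of the same library. Restricted cells held 702 CPM in cKO-drug, 448 in irradiated WT and 407 in non-irradiated cells, which put the cKO-drug library 1.56-fold (1.47 to 1.67) above the irradiated WT and 1.73-fold (1.66 to 1.79) above the non-irradiated library. Restricting the cells also turned the order of the wild-type libraries, with an irradiated WT over non-irradiated ratio of 1.10 (1.04 to 1.17), against 0.872 (0.829 to 0.916) in the whole set. In cells of female type the cKO-drug over irradiated WT ratio was 1.57 (1.48 to 1.67), so it was present without the male-type cells.

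The other stromal cells gave C4b a different order. Restricted Pi16/Dpp4 cells held C4b at 1044 CPM in cKO-drug, 1396 in irradiated WT and 751 in non-irradiated cells, the irradiated WT library being highest. The 3 cells with most C4b held 41.2% of its UMIs there in the cKO-drug library, 46.2% in the irradiated WT library and 11.4% in the non-irradiated library. The cKO-drug over irradiated WT ratio was 0.748 (0.642 to 0.872) and the irradiated WT over non-irradiated ratio 1.86 (1.64 to 2.10). Collagen-positive cells outside both fibroblast sets and without Ptprc had C4b at 830 CPM in cKO-drug, 936 in irradiated WT and 463 in non-irradiated cells, with an irradiated WT over non-irradiated ratio of 2.02 (1.77 to 2.31). Mural cells without Ptprc, the contractile cells around vessels, had it at 276 CPM in cKO-drug, 822 in irradiated WT and 134 in non-irradiated cells. Their ratio was 0.336 (0.239 to 0.471) between the cKO-drug and irradiated WT libraries and 6.15 (4.67 to 8.05) between the irradiated WT and non-irradiated libraries. C4b was therefore higher in both irradiated libraries than in the non-irradiated one in each of these 4 Ptprc-free stromal groups, and which irradiated library was higher depended on the group. The mural values rest on few cells, as only 36 cKO-drug, 16 irradiated WT and 301 non-irradiated mural cells were found before Ptprc-positive ones were left out. In the whole Pi16/Dpp4 set C4b was at 372 CPM in cKO-drug, 242 in irradiated WT and 295 in non-irradiated cells. There the 10 adventitial fibroblast markers summed to 5347 CPM in cKO-drug, 3613 in irradiated WT and 7207 in non-irradiated cells and the 5 neutrophil markers to 25216 CPM in cKO-drug, 4149 in irradiated WT and 831 in non-irradiated cells, and the part of those other cells in the C4b levels was not tested. C4b shares 48.8% of its 31-base stretches with C4a, and 57.7% of those in its last 500 bases. C4a was not among the features counted, so it could not be told apart, and its part in the C4b counts was not tested.

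**Figure D2:**
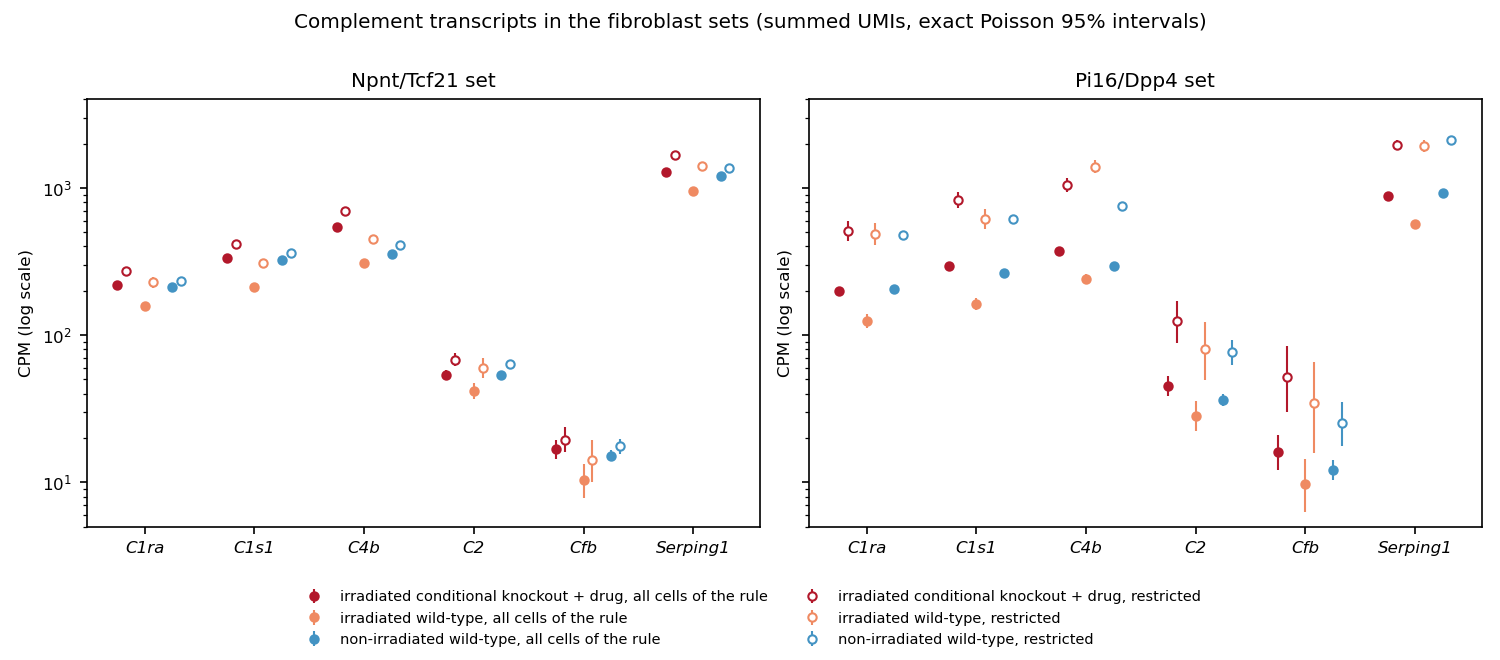
Level of C1ra, C1s1, C4b, C2, Cfb and Serping1 (CPM, log axis, exact Poisson 95% intervals) in the Npnt/Tcf21 and Pi16/Dpp4 fibroblast sets of the cKO-drug, irradiated WT and non-irradiated libraries. Filled points are all cells of the rule and open points the restricted cells, in which C4b stood at 702 CPM in cKO-drug, 448 in irradiated WT and 407 in non-irradiated cells of the first set and at 1044 CPM in cKO-drug, 1396 in irradiated WT and 751 in non-irradiated cells of the second.

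C2, the partner of C4b in the classical convertase, differed less than C4b in Npnt/Tcf21 cells. Restricted Npnt/Tcf21 cells held C2 at 68.1 CPM in cKO-drug, 59.7 in irradiated WT and 63.5 in non-irradiated cells, and the cKO-drug over irradiated WT ratio of 1.14 (0.944 to 1.38) did not exclude equality. Among restricted Pi16/Dpp4 cells C2 was at 124 CPM in cKO-drug, 80.5 in irradiated WT and 76.4 in non-irradiated cells, and the same ratio was 1.54 (0.881 to 2.76). The cKO-drug library was the highest in both sets, and in the second its ratio to the non-irradiated library was 1.62 (1.09 to 2.37). The other Csf1r cells had C2 at 8.61 CPM in cKO-drug, 4.89 in irradiated WT and 13.2 in non-irradiated cells, but at 1.12 CPM in cKO-drug, 0 in irradiated WT and 0.452 in non-irradiated cells once cells that met another rule were left out. Both C2 and Cfb overlap the gene Gm20547 on the same strand, so their counts are uncertain.

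Cfb, factor B of the alternative pathway, was the member found in both fibroblasts and macrophages. The fibroblast sets held 73.0% of its UMIs in the cKO-drug library, 68.8% in the irradiated WT library and 83.3% in the non-irradiated library, and the myeloid sets 19.2%, 21.1% and 9.34% in that order. Restricted Npnt/Tcf21 cells held Cfb at 19.5 CPM in cKO-drug, 14.2 in irradiated WT and 17.5 in non-irradiated cells, with a cKO-drug over irradiated WT ratio of 1.37 (0.941 to 2.05), whose interval includes equality. The Marco/Siglecf set held it at 24.3 CPM in cKO-drug, 12.8 in irradiated WT and 22.1 in non-irradiated cells, from 16 of 64, 7 of 52 and 17 of 127 cells in that order. After restriction that set held 25.1 CPM in cKO-drug, 18 in irradiated WT and 27.6 in non-irradiated cells. B cells that met none of the 6 rules held Cfb at 0 CPM in cKO-drug, 0.315 in irradiated WT and 0.334 in non-irradiated cells. The Marco/Siglecf level stood far above that of these B cells in each library. Its cKO-drug over irradiated WT ratio of 1.90 (0.964 to 3.93) did not exclude equality.

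Serping1, the C1 inhibitor, was in most fibroblasts. In the Npnt/Tcf21 set it was at 1273 CPM in cKO-drug, 946 in irradiated WT and 1200 in non-irradiated cells and was seen in 74.5% of cKO-drug, 62.6% of irradiated WT and 85.3% of non-irradiated cells. B cells had a Serping1 UMI in 2.90% of cKO-drug, 1.59% of irradiated WT and 11.1% of non-irradiated cells, far fewer. Restricted Npnt/Tcf21 cells held 1671 CPM in cKO-drug, 1414 in irradiated WT and 1367 in non-irradiated cells. The cKO-drug library was then 1.18-fold (1.14 to 1.23) above the irradiated WT and 1.22-fold (1.19 to 1.25) above the non-irradiated library, while the irradiated WT over non-irradiated ratio was 1.03 (0.999 to 1.07). Restricted Pi16/Dpp4 cells held Serping1 at 1948 CPM in cKO-drug, 1925 in irradiated WT and 2107 in non-irradiated cells, with a cKO-drug over irradiated WT ratio of 1.01 (0.897 to 1.14). No member was called in either fibroblast set in any of the 3 comparisons. Between the irradiated libraries, 6 of 9 members could be tested in each fibroblast set, and 0.459% of all genes were called higher and 0.738% lower in the Npnt/Tcf21 set, and 2.62% and 1.24% in the Pi16/Dpp4 set. Between the wild-type libraries 9 and 8 members could be tested, and the shares of all genes called were 2.97% higher and 1.38% lower in the first set and 4.56% and 7.43% in the second. Between the cKO-drug and non-irradiated libraries, again with 9 and 8 members tested, they were 1.99% and 0.945% in the first set and 4.45% and 4.56% in the second.

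Several of these members were counted together in single fibroblasts. C1ra, C1s1, C4b and Serping1 were all seen in 45.7% of cKO-drug, 36.9% of irradiated WT and 33.3% of non-irradiated cells of the restricted Npnt/Tcf21 set. The share was 61.4% of cKO-drug, 69.7% of irradiated WT and 49.5% of non-irradiated cells of the restricted Pi16/Dpp4 set. In both restricted sets each irradiated library lay above the non-irradiated one, but in the whole sets the irradiated WT library was lowest, at 41.5% of cKO-drug, 30.6% of irradiated WT and 34.4% of non-irradiated cells of the Npnt/Tcf21 set and 38.7% of cKO-drug, 34.3% of irradiated WT and 36.3% of non-irradiated cells of the Pi16/Dpp4 set. Cells with none of these genes were also more frequent in both irradiated libraries of the restricted Npnt/Tcf21 set. Their share was 9.65% of cKO-drug, 12.6% of irradiated WT and 5.51% of non-irradiated cells of the restricted Npnt/Tcf21 set. In the restricted Pi16/Dpp4 set it was 6.82%, 6.06% and 5.26% in that order. These came from 3 of 44, 2 of 33 and 10 of 190 cells, too few to order the libraries. The restricted Npnt/Tcf21 cells had median depths of 6147 UMIs in the cKO-drug, 6481 in the irradiated WT and 6175 in the non-irradiated library, and the restricted Pi16/Dpp4 cells 5508.5, 5943 and 6631.5 UMIs in that order. Levels and depth both enter such a share, and the part of depth was not tested.

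In the unrestricted other Csf1r, Pecam1/Cdh5 and Epcam sets, C4b, C1ra, C1s1 and Serping1 were lower in the irradiated WT than in the non-irradiated library, as were C1ra, C1s1 and Serping1 in the Marco/Siglecf set. Over the 6 sets, 45 of the 54 combinations of member and set held enough UMIs to be tested between the wild-type libraries, and 15 were called lower and 3 higher. The 15 were C1s1, C1ra and Serping1 in the Marco/Siglecf set and C4b, C1s1, C1ra and Serping1 in each of the other Csf1r, Pecam1/Cdh5 and Epcam sets. Among all genes tested, 7.02% were called lower in the Marco/Siglecf set, 8.02% in the other Csf1r cells, 11.5% in the Pecam1/Cdh5 set and 5.92% in the Epcam set. In the Pecam1/Cdh5 set Serping1 was at 98.8 CPM in cKO-drug, 51.9 in irradiated WT and 242 in non-irradiated cells. In the Epcam set it was at 50.1 CPM in cKO-drug, 24.3 in irradiated WT and 133 in non-irradiated cells, the non-irradiated library being highest in both. Restricted Pecam1/Cdh5 cells held Serping1 at 28.5 CPM in cKO-drug, 53.9 in irradiated WT and 61.7 in non-irradiated cells and restricted Epcam cells at 26.6 CPM in cKO-drug, 24.9 in irradiated WT and 23.9 in non-irradiated cells. Most of the Serping1 difference between the wild-type libraries in these sets was thus in cells left out by the restriction. Against the non-irradiated library, the cKO-drug library stayed low in restricted Pecam1/Cdh5 cells, at 28.5 against 61.7 CPM.

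Alveolar fibroblast markers moved with those calls in the Pecam1/Cdh5, Epcam and Marco/Siglecf sets, and their sums in the other Csf1r cells are not given here. The 8 alveolar fibroblast markers summed to 433 CPM in cKO-drug, 347 in irradiated WT and 1691 in non-irradiated cells of the Pecam1/Cdh5 set. They summed to 657 CPM in cKO-drug, 463 in irradiated WT and 1441 in non-irradiated cells of the Epcam set, with 0, 2 and 0 of them at 0 in that order, and to 503 CPM in cKO-drug, 191 in irradiated WT and 993 in non-irradiated cells of the Marco/Siglecf set, with 0, 1 and 0 at 0. The 10 adventitial fibroblast markers summed to 41.5 CPM in cKO-drug, 63.0 in irradiated WT and 466 in non-irradiated cells of the Marco/Siglecf set, with 5, 4 and 0 of them at 0. In each of these sums the non-irradiated library was highest. B cells held Serping1 at 5.81 CPM in cKO-drug, 2.84 in irradiated WT and 27.9 in non-irradiated cells and C1s1 at 1.80 CPM in cKO-drug, 2.52 in irradiated WT and 8.53 in non-irradiated cells, also highest in the non-irradiated library. After restriction 6 of the 15 still held at least 30 UMIs in the higher library, and 2 of these remained called. Of the 9 under that minimum, C4b and C1s1 in the other Csf1r cells still differed over 2-fold, by -1.34 and -1.44 on the log2 scale. The 2 calls were Serping1 in the other Csf1r cells, at 7.26 CPM in cKO-drug, 0 in irradiated WT and 25.8 in non-irradiated cells, and C4b in the Pecam1/Cdh5 set, at 18.2 CPM in cKO-drug, 4.15 in irradiated WT and 13.7 in non-irradiated cells. The irradiated WT value of C4b rests on very few UMIs, from 85 cells with 482137 UMIs of all genes. This C4b call was lost, at -0.92 on the log2 scale, when Ptprc-positive cells were left out but overlaps kept. A call of C1qa lower in the Marco/Siglecf set was not among the 15. In restricted cells 6.9% of all genes were called lower in the other Csf1r cells, 6.24% in the Pecam1/Cdh5 set and 4.46% in the Marco/Siglecf set. Serping1 in restricted other Csf1r cells was also called lower in the cKO-drug than in the non-irradiated library, where 4.43% of all genes were. The part of fibroblast RNA in the remaining differences was not tested.

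Between the irradiated libraries, 35 combinations were tested, of which 9 were called higher and 1 lower in the cKO-drug library. Besides the 3 C1q chains of the Marco/Siglecf set, the 9 were C4b and C1s1 in the other Csf1r cells, C4b in the Pecam1/Cdh5 set and C4b, C1s1 and C1ra in the Epcam set. Of all genes, 4.5% were called higher in the other Csf1r cells, 1.35% in the Pecam1/Cdh5 set and 1.79% in the Epcam set. C4b was at 84.3 CPM in cKO-drug, 11.0 in irradiated WT and 76.4 in non-irradiated cells among the other Csf1r cells. It was at 42.7 CPM in cKO-drug, 14.8 in irradiated WT and 56.0 in non-irradiated cells of the Pecam1/Cdh5 set and at 12.2 CPM in cKO-drug, 1.99 in irradiated WT and 33.5 in non-irradiated cells of the Epcam set, so in each the irradiated WT library was the low one. None of these 6 calls could be tested in restricted cells, since all 6 were under 30 UMIs in both libraries. C4b in the other Csf1r and Pecam1/Cdh5 sets still differed over 2-fold there, with log2 differences of 1.88 and 1.34. In restricted cells C4b was at 13.4 CPM in cKO-drug, 0 in irradiated WT and 7.69 in non-irradiated cells of the other Csf1r set, 18.2 CPM in cKO-drug, 4.15 in irradiated WT and 13.7 in non-irradiated cells of the Pecam1/Cdh5 set and 8.38 CPM in cKO-drug, 2.26 in irradiated WT and 4.53 in non-irradiated cells of the Epcam set. The 1 lower call was C1qa in the Pecam1/Cdh5 set, at 5.79 CPM in cKO-drug, 19.2 in irradiated WT and 4.90 in non-irradiated cells, where 1.5% of all genes were called lower. The 3 higher calls between the wild-type libraries were the C1q chains of the same set, where 5.44% of all genes were called higher, and C1qb there stood at 35.5 CPM in cKO-drug, 25.2 in irradiated WT and 6.38 in non-irradiated cells. Cells with at least 10 C1q UMIs held most C1q UMIs of this set. They were 2 of 695 cKO-drug cells (92.7% of these UMIs), 3 of 401 irradiated WT cells (98.7%) and 5 of 2945 non-irradiated cells (67.0%). The 3 calls thus rest on the same few cells. Restricted Pecam1/Cdh5 cells held C1qa at 4.74 CPM in cKO-drug, 0 in irradiated WT and 2.11 in non-irradiated cells and C1qb at 0.791 CPM in cKO-drug, 0 in irradiated WT and 2.86 in non-irradiated cells, and all 3 chains had under 30 UMIs in each library, too few for a call.

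Between the cKO-drug and non-irradiated libraries, which enter the comparisons above, 46 combinations were tested, with 6 called higher and 8 lower. The 6 were the C1q chains in the Marco/Siglecf set, C1qb and C1qc in the other Csf1r cells and C1qb in the Pecam1/Cdh5 set. Of all genes, 3.3% were called higher in the Marco/Siglecf set, 2.82% in the other Csf1r cells and 4.32% in the Pecam1/Cdh5 set. The 8 were C1s1 and Serping1 in the Marco/Siglecf set, C1s1, C1ra and Serping1 in the Pecam1/Cdh5 set and C4b, C1s1 and Serping1 in the Epcam set. In these sets 8.19%, 7.71% and 4.85% of all genes were called lower. In restricted cells 4 of the 8 held enough UMIs to be tested and none remained called, and the Epcam differences turned to 0.49 for C4b, 0.19 for C1s1 and 0.13 for Serping1 on the log2 scale.

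**Figure D3:**
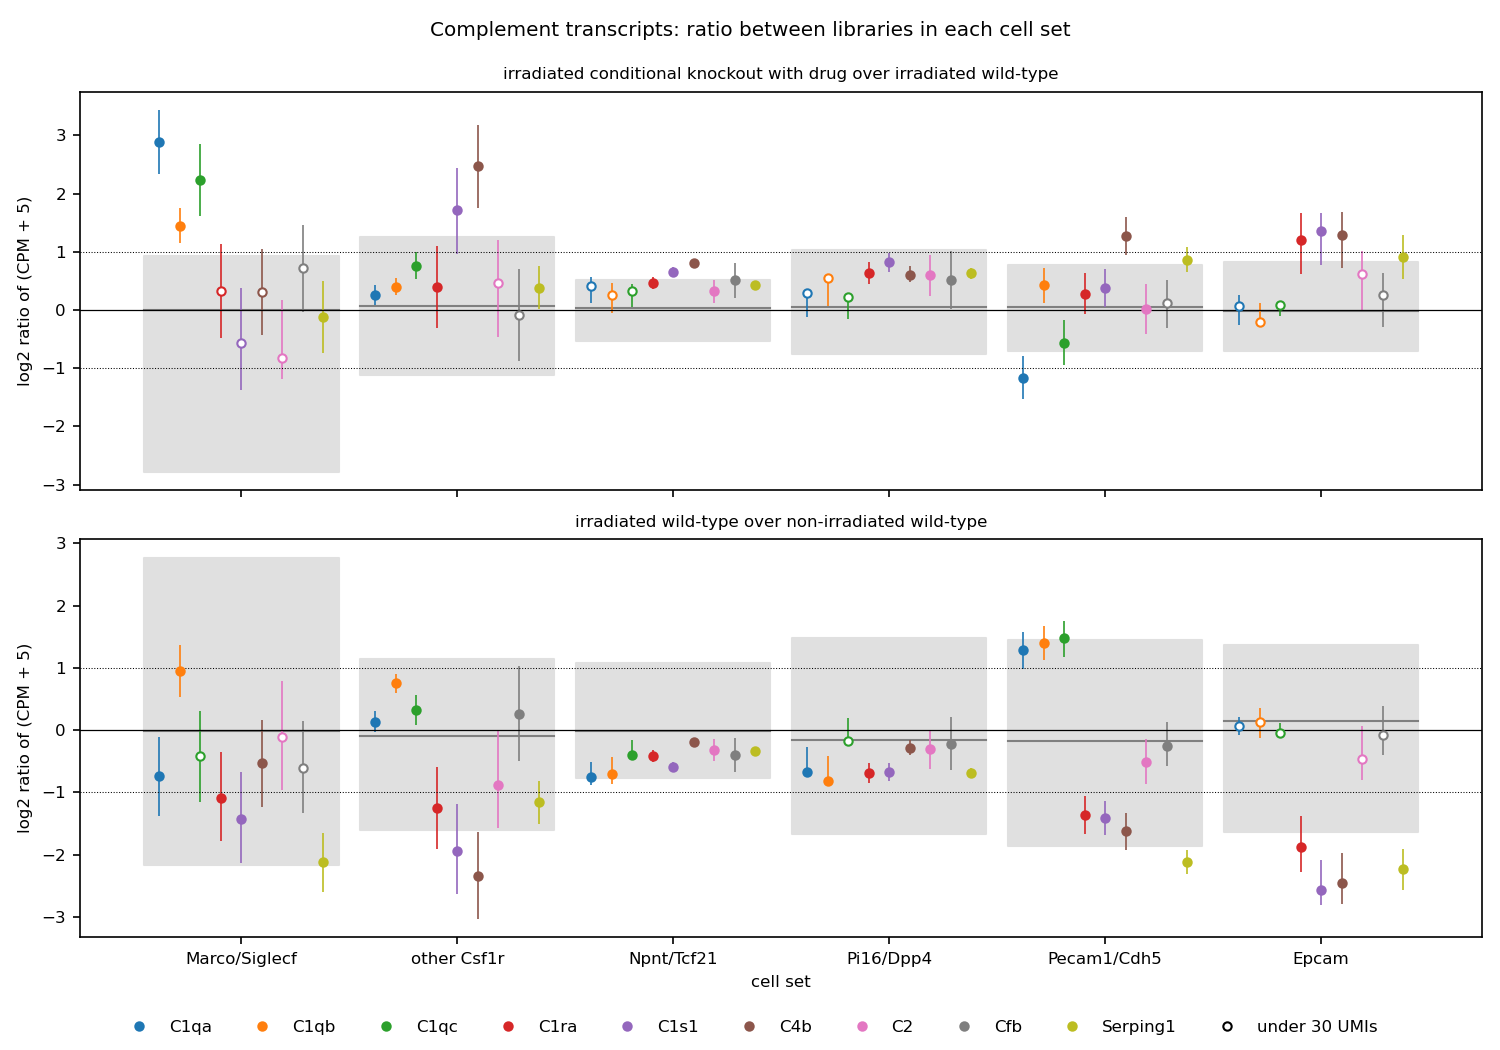
Log2 of the ratio of CPM + 5 for each of the 9 members in each cell set, for the cKO-drug over irradiated WT library (top) and the irradiated over non-irradiated WT library (bottom), with 95% counting intervals. Grey boxes span the central 95% of all genes tested in the set, grey lines their median and dotted lines a 2-fold difference; hollow points had under 30 UMIs in the higher library, and C1s1, C1ra and Serping1 lie below the lower dotted line in the Marco/Siglecf, other Csf1r, Pecam1/Cdh5 and Epcam sets of the bottom panel.

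Over the 18 points given by 6 sets and 3 libraries, which share library and depth within each library, each member was set beside all other genes. Among 5662 genes, the level of C1qa followed those of C1qc (Pearson r = 0.994), Ms4a7 (0.982) and C1qb (0.970) most closely. C1s1 was most like Prrx1 (0.986), Pamr1 and Serping1 (0.984 each), and C1ra like Prrx1 (0.986), Tpst1 (0.982) and Serping1 (0.98). C4b was most like Mmp2 (0.977), C1s1 (0.974) and Cpxm1 (0.970), and C2 like Clec11a (0.972), Cpxm1 (0.968) and Podn (0.967). Serping1 followed Prrx1 (0.993), Lama2 (0.991) and Podn (0.989). Cfb had the lowest top values, with Cd302 (0.942), Sh3pxd2b (0.938) and Dse (0.905). Prrx1 is a transcription factor of mesenchymal cells and Ms4a7 a macrophage surface protein.

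Of 50 other complement genes, giving 124 combinations tested between the wild-type libraries, 14 were called higher and 23 lower in the irradiated WT library, against 4.61% higher and 6.77% lower for all genes over the 6 sets. Between the irradiated libraries, 12 of 95 were called higher and 10 lower in the cKO-drug library, against 1.97% of all genes in each direction. C3, the central component, was at 1612 CPM in cKO-drug, 1285 in irradiated WT and 1297 in non-irradiated cells of the restricted Npnt/Tcf21 set. In the restricted Pi16/Dpp4 set it was at 3870 CPM in cKO-drug, 1979 in irradiated WT and 2082 in non-irradiated cells, highest in the cKO-drug library in both. Clu, the chaperone clusterin that also binds the terminal complex, was at 774 CPM in cKO-drug, 873 in irradiated WT and 152 in non-irradiated cells of the restricted Epcam set, so both irradiated libraries were above the non-irradiated one. Hc, complement C5, had the opposite order there, at 53.2 CPM in cKO-drug, 37.7 in irradiated WT and 398 in non-irradiated cells. Cd93, an endothelial surface receptor first described as a C1q receptor, was at 769 CPM in cKO-drug, 554 in irradiated WT and 1503 in non-irradiated cells of the restricted Pecam1/Cdh5 set. Cd55, the decay-accelerating factor, was at 2.70 CPM in cKO-drug, 91.3 in irradiated WT and 5.52 in non-irradiated cells of the Marco/Siglecf set but at 3.14 CPM in cKO-drug, 5.54 in irradiated WT and 4.80 in non-irradiated cells after restriction. C5ar1, the C5a receptor, was at 44.5 CPM in cKO-drug, 6.62 in irradiated WT and 7.30 in non-irradiated cells of the Pi16/Dpp4 set and at 0 CPM in cKO-drug, 3.83 in irradiated WT and 0.72 in non-irradiated cells after restriction, so its higher level lay in cells left out by the restriction.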

How the data were processed

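The deposited files hold whole-number counts of UMIs per gene and barcode in 1 matrix for each of 3 libraries, made by the authors with software version 3.1.0 per the file headers. The build was mm10 per the submitters' processing notes, and the aligner is not given in the sources used here. Barcodes numbered 11292, 7084 and 15485 in the cKO-drug, irradiated wild-type (WT) and non-irradiated libraries, each with at least 500 UMIs, for totals of 76667310, 45800421 and 85984536 UMIs. Barcodes with at least 250 genes and at most 15% UMIs of 13 mitochondrial genes were kept, with doublets left in.

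Marker sums of at least 2 UMIs defined a set, with at least 1 for Csf1r, and at least 1 for Epcam with no Ptprc. Shares and CPM carry exact binomial and Poisson 95% intervals, ratios exact conditional ones. The other Csf1r set leaves out the Marco/Siglecf cells, and all other sets may overlap. B cells held at least 2 UMIs of Cd79a and Ms4a1 together and met none of the 6 rules. Sets were summed per library, and no test was made with 1 library per group. All 9 members are named. Of other complement genes, at most 3 per list with the largest log2 difference among those called were named. Some of these, and the marker subsets of the Csf1r cells, are not reported here. The members and lists were chosen with earlier results of these data known. Of 12 other settings tried, 1 was chosen after seeing the data; they include Scrublet, which removed 893, 329 and 1622 barcodes. Sex type used Xist and 4 Y-linked genes. Calls and ratios were tested on simulated data (seed 1). Tables were made with pandas 2.3.3, numpy 2.4.6 and scipy 1.17.1 under Python 3.11.15, doublet scores with scanpy 1.11.5 and plots with matplotlib 3.10.9.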

Additional observations from a re-analysis of the deposited data

Results flagged for a closer look

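C1qa differed in opposite directions in 2 sets between the irradiated libraries, which is why it is listed here. In the Marco/Siglecf set C1qa was higher in the cKO-drug library than in the irradiated WT library, by 2.89 on the log2 scale (180 CPM in cKO-drug against 20.1 CPM in irradiated WT cells). In the Pecam1/Cdh5 set it was lower, with a log2 difference of -1.17 (5.79 CPM in cKO-drug against 19.2 CPM in irradiated WT cells). The effects lay 4.05 log2 units apart, and the difference itself was not tested. The first rests on 3 of 64 against 2 of 52 cells and the second on 9 of 695 against 4 of 401 cells. With the marker thresholds raised by 1 UMI both turned, to -2.00 and 1.53.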

How the results depend on the processing

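Leaving out a replicate was not possible with 1 library per group. No paired analysis was possible because each group had 1 library. In this paragraph values follow the order C1qa, C1qb, C1qc where 3 are given, and differences are log2 of the CPM + 5 ratio. The 3 calls higher in irradiated over non-irradiated wild-type became 1 in restricted cells, 1 with marker thresholds raised by 1 UMI, and 0 with cells thinned, with means of CPM per cell, with 20 CPM added, or without Ptprc-positive cells (overlaps kept), the last chosen after seeing the data. Neither of those single calls was among the 3, and the restricted one was C1qb in the other Csf1r cells. The 15 lower calls became 3 when restricted and 6 when thinned. For the cKO-drug over irradiated wild-type library, the 9 higher calls became 3 when restricted, 0 when thinned and 5 with 20 CPM added, and the 1 lower call became 2 with doublets removed or in cells of female type and 0 when restricted, thinned, averaged per cell, with 20 CPM added, or without Ptprc. For the cKO-drug over non-irradiated library, the 6 higher calls became 3 when restricted, 1 when thinned and 3 when averaged per cell, and the 8 lower calls became 4 with doublets removed, 1 when restricted (Serping1 in the other Csf1r cells, not among the 8), 4 with raised thresholds, 2 when thinned, 4 with 20 CPM added and 5 without Ptprc. The cause was not tested. Among members called in the whole sets, directions turned in 3 settings. When restricted, irradiated over non-irradiated wild-type turned in the Pecam1/Cdh5 set for the C1q chains (-0.51, -0.65, -0.35), and for C1s1 in the Marco/Siglecf set (0.042), C1ra in the other Csf1r cells (0.056) and Serping1 in the Epcam set (0.050). The cKO-drug over irradiated wild-type difference turned for C1qa in the Pecam1/Cdh5 set (0.96). The cKO-drug over non-irradiated difference turned for C1qb there (-0.44) and for C4b (0.49), C1s1 (0.19) and Serping1 (0.13) in the Epcam set. With raised thresholds it turned for the C1q chains in the Pecam1/Cdh5 set between the wild-type libraries (-0.97, -1.05, -0.47). It turned there for C1qa (1.53), and in the Marco/Siglecf set for the C1q chains (-2.00, -1.40, -1.09), between the irradiated libraries. Against the non-irradiated library C1qa (-2.03) and C1qc (-0.17) turned in the Marco/Siglecf set of the cKO-drug library. Without Ptprc, the C1q chains in the Pecam1/Cdh5 set turned between the wild-type libraries (-0.27, -0.46, -0.18), C1qa turned between the irradiated libraries (0.71) and C1qb against the non-irradiated library (-0.31). Median-of-ratios scaling shifted all genes by up to 0.26 (Epcam set, wild-type libraries) and moved 8 of 126 member differences. Serping1 in the other Csf1r cells stayed called lower between the wild-type libraries in 12 of 12 alternatives, from -3.88 to -1.04. Not all of these could change the call. Leaving out Ptprc did not alter the other Csf1r set, and a lower minimum of 10 UMIs cannot remove a call.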

Other observations

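Cells with at least 10 C1q UMIs, a threshold chosen after the values were seen, numbered 42 in the cKO-drug library, 10 in the irradiated WT library and 56 in the non-irradiated library. They held 94.7% of all C1q UMIs in the cKO-drug, 96.6% in the irradiated WT and 88.4% in the non-irradiated library. All 3 chains were present in 40 cKO-drug, 10 irradiated WT and 52 non-irradiated cells of these, and 8 cKO-drug, 0 irradiated WT and 9 non-irradiated cells lay outside the 6 sets. These cells also carried Spp1, osteopontin, at 28995 CPM in cKO-drug, 3611 in irradiated WT and 253 in non-irradiated cells. Apoe, a lipid-carrier gene of macrophages, was at 16674 CPM in cKO-drug, 10903 in irradiated WT and 3838 in non-irradiated cells. Pf4 had the opposite order, at 49.4 CPM in cKO-drug, 336 in irradiated WT and 476 in non-irradiated cells. C5ar1 was at 60.3 CPM in cKO-drug, 147 in irradiated WT and 241 in non-irradiated cells, lowest in the cKO-drug library, and C3ar1, the C3a receptor, at 99.9 CPM in cKO-drug, 175 in irradiated WT and 116 in non-irradiated cells. Median depths were 12624 UMIs in the cKO-drug, 28323.5 in the irradiated WT and 8530 in the non-irradiated library, and no difference among these values was tested.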
